A study of Mus musculus with 15 samples.

Results

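The 10 genes described here are 8 immediate early genes, Fos, Fosb, Jun, Junb, Jund, Dusp1, Zfp36 and Ier2, and the heat-shock pair Hspa1a and Hspa1b. They were taken by symbol from the 53762 genes of the counts table. They were chosen by a difference seen in these same data, in CPM (counts scaled to each library's total), between the library numbered 1 of a group and those numbered 2 and 3. That difference is therefore given as a description with no test, and the groups of cells are what is compared by test. Of the 10 genes, 9 were among the 16550 genes with enough counts to be tested, and Fosb, with at most 18 counts in a library, was not. The genes did not move as 1 block. Fos, Jun, Hspa1a and Hspa1b stood above both other libraries of their group in every library numbered 1, and Jund in none. With all libraries, Ier2 and Zfp36 passed the test across the 5 groups, 2 of 9 genes beside 27.9% of all tested genes. Dusp1 and Junb passed between the wild-type groups, beside 18% of all tested genes.

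Immediate early genes are transcribed soon after a cell receives a signal, without the need for new protein synthesis, and their mRNAs are short-lived. Many encode transcription factors: Fos-type and Jun-type proteins pair through leucine zippers to form AP-1, which in T cells acts downstream of the T cell receptor. Others end the response, such as the phosphatase encoded by Dusp1 and the mRNA-destabilising protein encoded by Zfp36. Hspa1a and Hspa1b encode inducible forms of the chaperone Hsp70, which are transcribed under heat-shock factor when proteins misfold. In mature thymocytes these genes are known to respond both to receptor signals and to cellular stress.

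RNA of 15 libraries of sorted mouse thymocytes on a C57BL/6 background was sequenced, 3 libraries in each of 5 groups. All cells were sorted as CD44lo TCRbhi CD24lo CD69lo from irradiated hosts of mixed bone marrow. Wild-type (WT) cells were the CD45.1+CD45.2+ competitors, with CD4 single-positive (SP) cells from B2m-/- hosts, which lack MHC class I at the surface, and CD8 SP cells from I-Ab-/- hosts, which lack MHC class II. Mutant cells were CD45.2+, of the genotype Thpokfl/fl Runx3fl/dYFP Cd4-Cre+, and all came from B2m-/- hosts. Those without Thpok-RKF (Thpok-RKF-) were sorted as CD8 SP and as CD4+CD8+ cells, and those with it (Thpok-RKF+) as CD4+CD8+ cells. The labels do not say what Thpok-RKF is. Cd4-Cre deletes floxed sequence in developing T cells. Host and genotype differ together between WT CD8 SP and the mutant groups and cannot be told apart there. Whether replicates are separate animals, and what the replicate number stands for, is not in the labels, so a p-value weighs a difference against the spread of these libraries, which may be technical.

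Each library held 37311823 to 48607260 counts in genes. Zbtb7b, which encodes Thpok, was at 1.67 to 2.95 CPM in the 6 Thpok-RKF- libraries, at 27.4 to 79.2 CPM in WT CD4 SP and at 768 to 823 CPM in Thpok-RKF+ libraries. Runx3 counts cover the whole gene and the labels do not name the deleted part, so they do not check that allele. Cd3e lay between 572 and 841 CPM in every library, and Cd4 and Cd8a followed the sort labels: Cd4 was at most 3.86 CPM in WT CD8 SP and Cd8a at most 7.68 CPM in WT CD4 SP. Among markers of other cells, the summed level of 10 myeloid markers was 42.2 CPM in WT CD4 SP replicate 1 and 60.7 CPM in Thpok-RKF+ CD4+CD8+ replicate 1, and 2.29 to 9.75 CPM in the other 13 libraries. In these bulk samples, fewer expressing cells and less RNA per cell cannot be told apart.

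The AP-1 genes come first. Fos encodes the Fos-type partner that needs a Jun-type protein to bind DNA, and Jun encodes the founding Jun-type protein. Their upstream sequences are shown because their promoters are known targets of signal-dependent factors. The RefSeq table (build GRCm38.p6) held promoters of 9 of the 10 genes, all except Ier2. The files' own build is mm39, and these coordinates were used for nothing else. Each line gives the 150 bases before the annotated start, 5′ to 3′ on the gene's strand, at chr12:85473740-85473889 (plus strand) for Fos and chr4:95052223-95052372 (minus strand) for Jun. Capitals mark matches, on either strand, to TGACG (the core of a cyclic AMP response element), TGACGTCA (the whole element), GAANNTTC (a heat-shock element core) or the TATA box TATAAA.
Fos: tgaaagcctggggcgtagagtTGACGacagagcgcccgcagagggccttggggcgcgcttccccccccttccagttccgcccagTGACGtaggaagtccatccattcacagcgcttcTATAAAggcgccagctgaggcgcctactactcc
Jun: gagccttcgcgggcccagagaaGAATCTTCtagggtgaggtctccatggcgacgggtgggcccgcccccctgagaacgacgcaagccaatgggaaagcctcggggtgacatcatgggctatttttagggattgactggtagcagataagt
Fos carried 2 cores of the cyclic AMP response element and a TATA box, and Jun a heat-shock element core.

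The search took the 250 bases before the start of 32851 promoters, on both strands. TGACG was found in 17.8% of all promoters and in those of Fos, Fosb, Junb and Dusp1. TGACGTCA, which contains TGACG on both strands, was found in 1.55% of all promoters, and among the 9 only in Dusp1. GAANNTTC was found in 6.69% of all promoters and in those of Jun, Hspa1a and Hspa1b, and its tail-to-tail form TTCNNGAA in 7.17% and in none of the 9. The AP-1 element TGANTCA, in 6.75% of all promoters, was in none of the 9. A CArG box, the serum response element core, was in 1.47% of all promoters and in that of Zfp36, and the TATA box was in 12.4% and in that of Fos. CCAAT was in 33.8% of all promoters and in 4 of the 9. A match is a run of letters, not evidence of binding. Sites more than 250 bases upstream were not searched, so a promoter without a match here may hold one farther away.

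The Fos level in replicates 1, 2 and 3 was 32.4, 12.7 and 12.7 CPM for WT CD4 SP, and 13.8, 10.1 and 12.6 CPM for WT CD8 SP. It was at 12.1, 4.99 and 4.01 CPM in Thpok-RKF- CD8 SP, at 23.6, 8.20 and 7.98 CPM in Thpok-RKF- CD4+CD8+, and at 31.6, 21.2 and 15.2 CPM in Thpok-RKF+ CD4+CD8+. The library numbered 1 was the highest of its group in all 5 groups, and with it every neighbouring pair of groups overlapped. Among the libraries numbered 2 and 3 alone Thpok-RKF+ CD4+CD8+ came first, then WT CD4 SP, then WT CD8 SP, then Thpok-RKF- CD4+CD8+ and last Thpok-RKF- CD8 SP, with no overlap between neighbours. This order rests on 2 libraries per group. The WT groups were nearly level at their closest, at 12.7 against 12.6 CPM. Their difference did not pass the edgeR test without the libraries numbered 1 (log2 difference 0.20, adjusted p = 0.613). How many of all tested genes separate in this way was not counted, so here and for the genes below a lack of overlap is a description only.

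Jun had the widest spread of the AP-1 genes that were tested. It was at 33.7, 7.74 and 7.39 CPM in WT CD4 SP, at 11.3, 7.70 and 8.91 CPM in WT CD8 SP, at 105, 4.54 and 3.54 CPM in Thpok-RKF- CD8 SP, at 55.3, 2.88 and 4.04 CPM in Thpok-RKF- CD4+CD8+, and at 19.8, 3.43 and 1.18 CPM in Thpok-RKF+ CD4+CD8+. The first value, that of replicate 1, was again the highest in every group, and in Thpok-RKF- CD8 SP the group mean of 37.7 ± 58.2 CPM (SD, n = 3) was carried by 1 library. Without the libraries numbered 1, the 4 WT libraries, at 7.39 to 8.91 CPM, lay above all 6 mutant ones, at 1.18 to 4.54 CPM.

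Junb encodes a Jun-type protein with weaker transactivation than Jun. It was at 393, 291 and 362 CPM in WT CD4 SP, at 140.0, 175 and 175 CPM in WT CD8 SP, at 393, 147 and 186 CPM in Thpok-RKF- CD8 SP, at 326, 209 and 196 CPM in Thpok-RKF- CD4+CD8+, and at 265, 395 and 341 CPM in Thpok-RKF+ CD4+CD8+. Here replicate 1 was the highest in 3 groups and the lowest in WT CD8 SP and Thpok-RKF+ CD4+CD8+. WT CD4 SP lay wholly above WT CD8 SP.

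Jund encodes the Jun-type protein that is expressed most steadily in resting cells. It was at 45.6, 73.8 and 74.9 CPM in WT CD4 SP, at 38.2, 72.2 and 61.1 CPM in WT CD8 SP, at 51.7, 51.0 and 56.7 CPM in Thpok-RKF- CD8 SP, at 41.9, 44.1 and 47.9 CPM in Thpok-RKF- CD4+CD8+, and at 38.5, 68.5 and 60.5 CPM in Thpok-RKF+ CD4+CD8+. Replicate 1 was the lowest in 4 groups and lay between the others in Thpok-RKF- CD8 SP, the opposite side to Fos and Jun. Fosb, a second Fos-type gene, had 0 to 18 counts per library, and its 3 Thpok-RKF- CD8 SP libraries were all at 0. A count of 0 allows up to 3 counts, a limit for counting error only, so no order of the groups is given for Fosb.

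Dusp1 encodes a phosphatase of the nucleus that inactivates MAP kinases, and Zfp36 (tristetraprolin) binds AU-rich elements of short-lived mRNAs and speeds their decay. The Dusp1 sequence is shown because it holds the 1 whole cyclic AMP response element found among these promoters, at chr17:26508473-26508622 (minus strand). Capitals mark that element.
Dusp1: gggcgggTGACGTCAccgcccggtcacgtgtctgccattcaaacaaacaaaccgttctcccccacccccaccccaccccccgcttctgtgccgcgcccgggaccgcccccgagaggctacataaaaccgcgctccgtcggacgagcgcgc
Dusp1 was at 254, 90.7 and 146 CPM in WT CD4 SP, at 38.5, 38.1 and 40.6 CPM in WT CD8 SP, at 187, 56.3 and 63.6 CPM in Thpok-RKF- CD8 SP, at 212, 63.6 and 67.6 CPM in Thpok-RKF- CD4+CD8+, and at 151, 151 and 116 CPM in Thpok-RKF+ CD4+CD8+. WT CD8 SP was the lowest group and overlapped no other. Replicate 1 was the highest of its group in 4 groups, and in WT CD8 SP it lay between the others.

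Zfp36 was at 160.4, 176 and 138 CPM in WT CD4 SP, at 115, 159 and 147 CPM in WT CD8 SP, at 98.2, 86.7 and 88.0 CPM in Thpok-RKF- CD8 SP, at 143, 169 and 166 CPM in Thpok-RKF- CD4+CD8+, and at 133, 126 and 132 CPM in Thpok-RKF+ CD4+CD8+. The 3 Thpok-RKF- CD8 SP libraries were below the other 12. Ier2, an immediate early gene whose protein acts in the nucleus, was at 345, 325 and 281 CPM in WT CD4 SP, at 233, 296 and 294 CPM in WT CD8 SP, at 179.8, 142 and 159.8 CPM in Thpok-RKF- CD8 SP, at 247, 241 and 238 CPM in Thpok-RKF- CD4+CD8+, and at 264, 510.5 and 493 CPM in Thpok-RKF+ CD4+CD8+. Thpok-RKF- CD8 SP was again below all other libraries. Thpok-RKF+ CD4+CD8+ held the 2 highest libraries of all 15, in replicates 2 and 3, and its replicate 1 lay within the range of WT CD8 SP.

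Hspa1a and Hspa1b are neighbouring copies on chromosome 17. Their upstream lines are shown because they are nearly the same. How far the counts can be divided between the copies depends on their transcripts, which are compared after the lines. The lines lie at chr17:34972157-34972306 for Hspa1a and chr17:34959239-34959388 for Hspa1b (both minus strand), and capitals mark the heat-shock element core.
Hspa1a: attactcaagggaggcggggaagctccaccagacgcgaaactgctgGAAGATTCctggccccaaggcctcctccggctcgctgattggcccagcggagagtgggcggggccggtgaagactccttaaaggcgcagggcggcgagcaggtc
Hspa1b: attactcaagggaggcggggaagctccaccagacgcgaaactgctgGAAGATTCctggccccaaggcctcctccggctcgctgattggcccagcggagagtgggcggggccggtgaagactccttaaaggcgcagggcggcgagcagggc
Over the full 250 bases upstream the copies were identical at 247 positions. Of the 101-base stretches in their transcripts, the length of 1 read, 46.9% of those of Hspa1a were also in Hspa1b and 49.7% of those of Hspa1b also in Hspa1a. The division of reads between the copies is therefore uncertain, and their sum is given too. Of counted reads, 3.67 to 4.43% per library were set aside as not uniquely aligned. Reads that fit both copies may be among them, so the counts of each copy, and their sum, may be too low.

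Hspa1a had 89, 1 and 4 counts in replicates 1, 2 and 3 of WT CD4 SP, 19, 1 and 0 for WT CD8 SP, 33, 0 and 8 in Thpok-RKF- CD8 SP, 22, 0 and 0 in Thpok-RKF- CD4+CD8+, and 9, 0 and 0 in Thpok-RKF+ CD4+CD8+. Hspa1b had 228, 50 and 52 counts for WT CD4 SP, 204, 16 and 0 for WT CD8 SP, 164, 30 and 0 in Thpok-RKF- CD8 SP, 211, 19 and 0 in Thpok-RKF- CD4+CD8+, and 25, 6 and 11 in Thpok-RKF+ CD4+CD8+. For both genes replicate 1 held the most counts in every group. The summed level was 7.24, 5.93, 4.42, 4.74 and 0.719 CPM in replicate 1 of the 5 groups in that order, and at most 1.28 CPM in any library numbered 2 or 3. The replicate 1 of Thpok-RKF+ CD4+CD8+ lay below WT CD4 SP replicates 2 and 3, at 1.06 and 1.28 CPM.

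**Figure D1:**
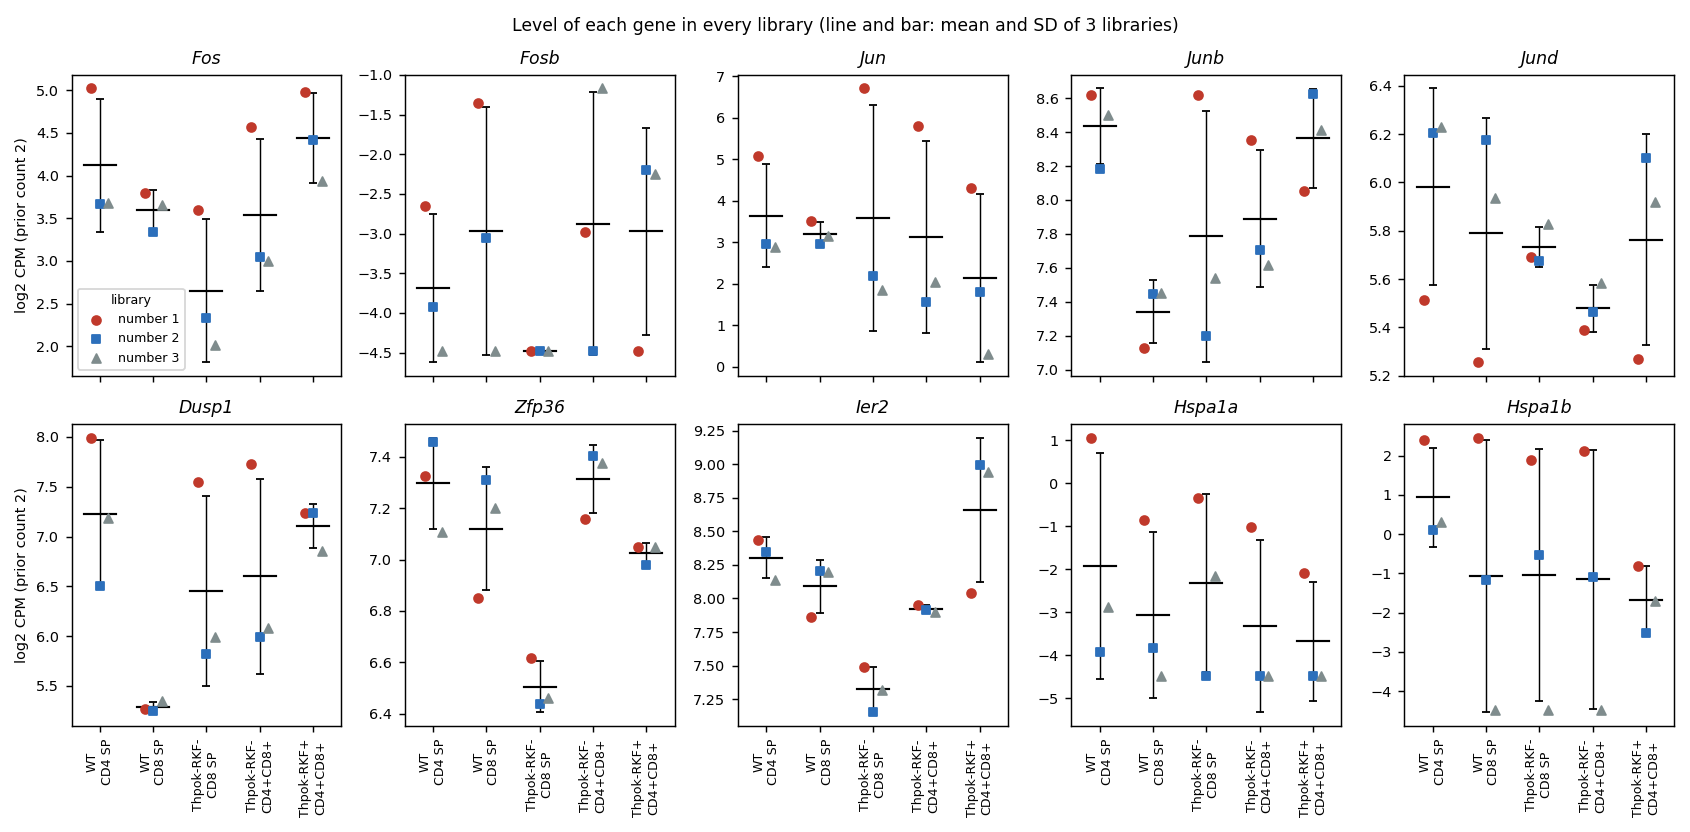
Level of each of the 10 genes in every library on a log2 CPM scale (y axis, prior count 2) in the 5 groups (x axis), with points marked by replicate number and a line and bar for the mean and SD of 3 libraries. For Jun, Fos, Hspa1a and Hspa1b the circle of the library numbered 1 is the highest in every group, Dusp1 is lowest in WT CD8 SP, at 38.1 to 40.6 CPM, and Zfp36 and Ier2 are lowest in Thpok-RKF- CD8 SP.

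The difference that chose the genes can be put on 1 scale, the log2 CPM of the library numbered 1 minus the mean of the libraries numbered 2 and 3, with no test. Jun was 2.15 higher for WT CD4 SP, 0.45 for WT CD8 SP, 4.69 for Thpok-RKF- CD8 SP, 4.001 for Thpok-RKF- CD4+CD8+ and 3.26 in Thpok-RKF+ CD4+CD8+. Fos was 1.35, 0.29, 1.42, 1.54 and 0.81 higher in the same order. Both had their smallest difference in WT CD8 SP. Averaged over the 5 groups the differences were 2.91 for Jun, 1.08 for Fos, 0.93 for Dusp1, 0.29 for Junb, −0.08 for Zfp36, −0.16 for Ier2 and −0.49 for Jund. Hspa1a and Hspa1b averaged 3.31 and 3.61, sizes that rest on the prior count since several libraries had no counts. With log2(CPM + 1) in its place they averaged 0.71 and 1.67.

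Of the 10 genes, 4 lay above the mean of the other libraries in 5 of 5 groups, as did 9.63% of the tested genes. With the prior count of 2, the same 4 differed by at least 1 log2 unit on average, as did 5.37% of the tested genes. With log2(CPM + 1) Hspa1a did not reach 1. Since this difference chose the genes, nothing is read from these shares. Ordered by size, Fos at 1.08 and Dusp1 at 0.93 are the genes on either side of a difference of 1. The median over the 10 genes was 1.25 in WT CD4 SP, 0.13 in WT CD8 SP, 1.34 in Thpok-RKF- CD8 SP, 1.12 in Thpok-RKF- CD4+CD8+ and 0.12 in Thpok-RKF+ CD4+CD8+, and that over all tested genes lay between −0.03 and 0.04.

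**Figure D2:**
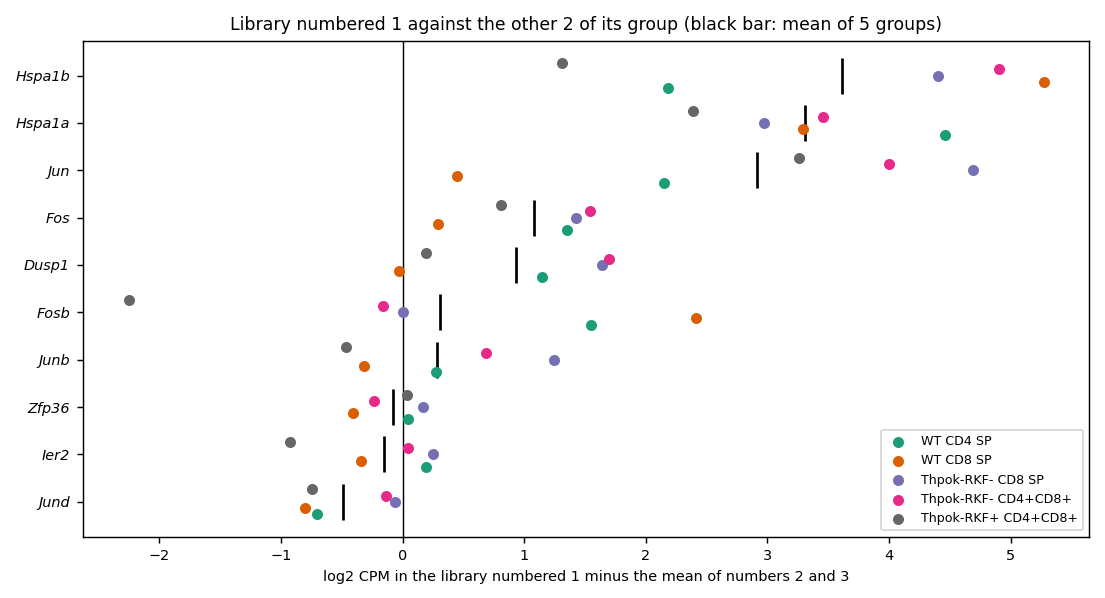
Difference in log2 CPM between the library numbered 1 and the mean of numbers 2 and 3 (x axis) for each gene (rows), with 1 point per group and a black bar at the mean of 5 groups. The genes spread from Hspa1b, at a mean of 3.61, to Jund, at −0.49, whose 5 points all lie below 0.

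Other measures moved with the replicate number. The share of counted reads that fell in no annotated gene was 7.74 to 11.2% in the libraries numbered 1 and 5.09 to 8.86% in the others, and replicate 1 had the highest share in 5 of 5 groups. The summed level of 9 mature T cell markers was 8082 to 11267 CPM in the libraries numbered 1 and 10138 to 15054 CPM in the others, and replicate 1 had the highest sum in 0 of 5 groups. Their part in the differences of the 10 genes was not tested. The share of mitochondrial transcripts overlapped, at 0.207 to 0.619% against 0.227 to 0.442%. Of the 8 myeloid markers tested, 0 passed the edgeR quasi-likelihood test of number 1 against the rest, and Lyz2, a defining myeloid gene, was at 28.4 and 24.5 CPM in WT CD4 SP and Thpok-RKF+ CD4+CD8+ replicate 1 and at or below 0.570 CPM in the other 3 libraries numbered 1.

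Libraries numbered 3 were compared with those numbered 2, a contrast that did not choose the genes. None of the 9 tested genes passed the edgeR test with replicate number in the model (adjusted p of 1 for each), and 0% of all tested genes did, with 351 of 16550 at an unadjusted p under 0.05. DESeq2 called 19 genes and limma 0, none of them among the 9. The spread in these fits also takes in the libraries numbered 1, so the lack of calls does not show that numbers 2 and 3 agree. The log2 difference was −0.09 ± 0.20 (SE) for Fos, −0.18 ± 0.53 for Jun, 0.11 ± 0.26 for Dusp1 and 0.05 ± 0.23 for Junb. It was 1.84 ± 1.197 for Hspa1a and −1.42 ± 1.13 for Hspa1b, where errors are wide at these counts.

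Between the 5 groups, Ier2 and Zfp36 changed (edgeR adjusted p = 0.00124 and 0.00192), 2 of the 9 tested genes, where 27.9% of all tested genes passed. Dusp1 (adjusted p = 0.0587), Junb (0.0636) and Fos (0.118) did not pass in this fit. With a term for number 1 and all 15 libraries kept, they did (0.00459, 0.0358 and 0.000972), 5 of 9 genes beside 37.1% of all tested genes. With the libraries numbered 1 left out, 7 of 8 genes passed, Fos, Jun, Junb, Jund, Dusp1, Zfp36 and Ier2, where 32.5% of all tested genes did. Both fits take away the very difference the genes were chosen by, which tends to lower their spread within groups by construction, so here and in the comparisons that follow these counts are not read against the share of all genes. Of those 7, Jun and Jund had the largest adjusted p, 0.0382 and 0.0191, and Hspa1b did not pass (0.694). Hspa1a then had too few counts to be tested. Removing replicate 1 of Thpok-RKF- CD8 SP alone, or of Thpok-RKF- CD4+CD8+ alone, added Fos (adjusted p = 0.0431 and 0.0369), Junb (0.00248 and 0.0363) and Dusp1 (0.0135 and 0.0132), where 23.3% and 23.7% of all tested genes passed. Junb also passed without Thpok-RKF- CD8 SP replicate 2 (0.0325) or Thpok-RKF+ CD4+CD8+ replicate 1 (0.0333). Dusp1 also passed without WT CD4 SP replicate 2 (0.0372) or Thpok-RKF- CD4+CD8+ replicate 2 (0.0482). Of all tested genes, 21.2%, 35.4%, 23.9% and 22.1% passed in these fits, in that order.

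WT CD4 SP against WT CD8 SP sets helper-lineage cells from B2m-/- hosts against cytotoxic-lineage cells from I-Ab-/- hosts, so lineage and host cannot be told apart. Dusp1 was higher in WT CD4 SP, at 163 ± 83.2 CPM against 39.0 ± 1.33 CPM (SD, n = 3 each), a log2 difference of 2.07 ± 0.52 (SE; edgeR adjusted p = 0.0129). Junb was higher as well, at 349 ± 52.2 CPM against 163 ± 20.05 CPM, a log2 difference of 1.09 ± 0.30 (adjusted p = 0.0216). These 2 of 9 genes stand beside 18% of all tested genes, of which 7.72% were higher and 10.3% lower. Fos, Jun, Jund, Zfp36 and Ier2 did not pass, with log2 differences of 0.17 to 0.81. Without WT CD4 SP replicate 1 the adjusted p was 0.0552 for Dusp1 and 0.0589 for Junb, and for Junb it was 0.0657, 0.0525 and 0.0503 without WT CD8 SP replicate 1, 2 or 3. With all libraries numbered 1 left out both passed, at log2 differences of 1.61 and 0.93 (adjusted p = 0.00106 and 0.00211), beside 18.3% of all tested genes.

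Thpok-RKF- CD8 SP against WT CD8 SP compares cells of the same sort phenotype. Zfp36 was lower in the mutant cells, at 91.0 ± 6.33 CPM against 140.4 ± 22.5 CPM, a log2 difference of −0.63 ± 0.13 (adjusted p = 0.00335). Ier2 was lower too, at 160.7 ± 18.7 CPM against 274 ± 35.7 CPM, a log2 difference of −0.77 ± 0.20 (adjusted p = 0.0127). Of all tested genes, 18.4% passed, 10.6% lower and 7.78% higher. Dusp1 lay on the other side, with a log2 difference of 1.39 ± 0.51, and did not pass (adjusted p = 0.0757). It passed without Thpok-RKF- CD8 SP replicate 2 or Thpok-RKF- CD4+CD8+ replicate 1 (0.0491 and 0.0320), where 12.8% and 16.8% of all tested genes did. With the libraries numbered 1 left out the log2 difference of Dusp1 was 0.63 (0.0628). Leaving out WT CD8 SP replicate 2 or 3, or Thpok-RKF- CD8 SP replicate 2, ended the call of Ier2 (adjusted p = 0.0605, 0.0590 and 0.0683). With the libraries numbered 1 left out, Fos was lower as well, by a log2 difference of −1.31 (adjusted p = 0.00384), so that 3 of 8 genes passed beside 20% of all tested genes, and the fitted difference of Jun was −1.01 in place of 2.02 ± 1.35, with neither value past the threshold.

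Within the Thpok-RKF- genotype, Zfp36 was higher in CD4+CD8+ than in CD8 SP cells, at 159.5 ± 14.4 CPM against 91.0 ± 6.33 CPM, a log2 difference of 0.81 ± 0.13 (adjusted p = 0.00289). It was the 1 gene of 9 that passed, where 2.44% of all tested genes did, 1.72% higher and 0.719% lower. Ier2 had a log2 difference of 0.59 ± 0.20 (adjusted p = 0.180). It passed with the libraries numbered 1 left out (0.67, adjusted p = 0.00811). Zfp36 passed there too, 2 of 8 genes beside 3.14% of all tested genes. Ier2 also passed without Thpok-RKF+ CD4+CD8+ replicate 1 (0.60, adjusted p = 0.00874), beside 2.96% of all tested genes. That library is in neither group and enters through the shared estimate of spread. Junb and Dusp1, at 0.01 ± 0.30 and 0.16 ± 0.50, did not pass. This contrast shares its CD8 SP libraries with the one before it, so the Zfp36 values of both rest on the same 3 low libraries.

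The comparison of CD4+CD8+ cells with and without Thpok-RKF gave 0 of 9 genes past the edgeR test with all libraries, where 0.961% of all tested genes passed, 0.586% higher and 0.375% lower with Thpok-RKF. Ier2 was nearest, at 422 ± 138 CPM against 242 ± 4.66 CPM, a log2 difference of 0.80 ± 0.20 (adjusted p = 0.0737, unadjusted p = 0.00107), and it was the 1 gene of the 9 that DESeq2 called. Zfp36 also had an unadjusted p under 0.05, 0.0411, with a log2 difference of −0.29 ± 0.13. With the libraries numbered 1 left out, which the choice of genes favours as said above, 5 of 8 genes were higher in Thpok-RKF+ cells (10.7% of all tested genes passed in either direction): Fos by 1.17 on the log2 scale (adjusted p = 0.0153), Ier2 by 1.06 (0.00147), Dusp1 by 1.02 (0.0184), Junb by 0.86 (0.00927) and Jund by 0.49 (0.0476). Jun lay on the other side, at −0.58, and did not pass (adjusted p = 0.424). Removing Thpok-RKF+ CD4+CD8+ replicate 1 alone, the library with the highest myeloid sum, gave a log2 difference of 1.06 for Ier2 (adjusted p = 0.000618). In that fit 9.74% of all tested genes passed, so the rise in calls was not particular to Ier2. The removed library also had the highest share of counted reads in no annotated gene, 11.2%, and the part of these traits was not tested.

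Against WT CD4 SP, which both mutant CD4+CD8+ groups share as reference, 0 of 9 genes passed the edgeR test in either group with all libraries. Of all tested genes, 17.6% passed for Thpok-RKF- cells (9.15% higher, 8.42% lower) and 7.26% for Thpok-RKF+ cells (4.36% higher, 2.91% lower). In Thpok-RKF- cells Jund had an unadjusted p of 0.0465 (log2 difference −0.54 ± 0.25, adjusted p = 0.146), the 1 gene of the 9 under 0.05. In Thpok-RKF+ cells none was under 0.05, and Zfp36 and Ier2 were nearest, at 0.0501 and 0.0530. DESeq2 and limma also called none of the 9 in either contrast. With the libraries numbered 1 left out, Jund, Junb, Dusp1 and Ier2 were lower in Thpok-RKF- than in WT CD4 SP cells, by log2 differences of −0.69, −0.69, −0.84 and −0.34 (adjusted p = 0.00764, 0.00971, 0.0214 and 0.0419), 4 of 8 genes beside 20.3% of all tested genes. In Thpok-RKF+ cells Ier2 alone of the 8 passed, higher by 0.72 (adjusted p = 0.00298), beside 6.14% of all tested genes. Without Thpok-RKF+ CD4+CD8+ replicate 1 alone, Ier2 passed in both contrasts, at −0.41 (adjusted p = 0.0198) and 0.66 (0.00552). In that fit 22% of all tested genes passed for Thpok-RKF- against WT CD4 SP cells. For Thpok-RKF+ against WT CD4 SP cells, the range of shares with 1 library left out is given at the end. Whether Ier2 differs between these contrasts is the Thpok-RKF+ against Thpok-RKF- test above.

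**Figure D3:**
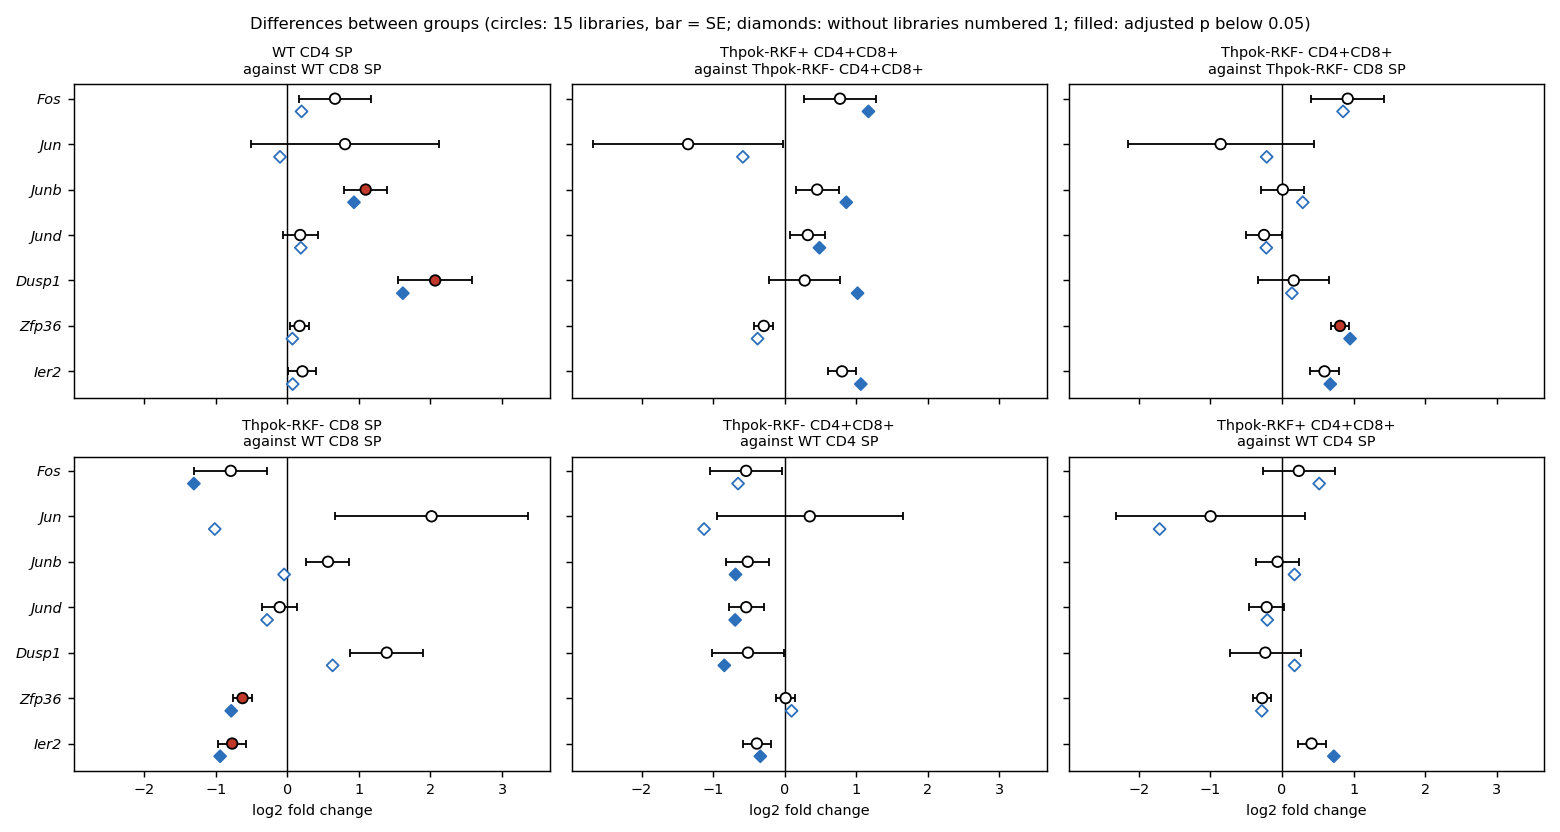
Log2 fold change (x axis) of 7 genes (rows) in the 6 comparisons of groups, with circles and SE bars for all 15 libraries and diamonds for the fit without the libraries numbered 1; filled symbols passed at an adjusted p below 0.05. With all libraries the filled circles are Junb and Dusp1 between the WT groups and Zfp36 or Ier2 in the contrasts with Thpok-RKF- CD8 SP, and the diamonds of Fos, Junb, Jund, Dusp1 and Ier2 are filled for Thpok-RKF+ against Thpok-RKF- CD4+CD8+.

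Genes related to the 10 were taken from lists and read in the same fits, in which 27.9% of all tested genes differed between groups. The lists were chosen with earlier results of these data known. Here and in the paragraphs on lists below, counts of listed genes beside the share of all genes are therefore a description, also for number 1 against the rest. Of 7 listed AP-1 partners, 4 were tested and 3 differed between groups: Batf (adjusted p = 0.00186), Fosl2 (0.0141) and Maff (0.0228), but not Mafk (0.536). Batf, which pairs with Jun-type proteins, was lower in Thpok-RKF- CD8 SP than in WT CD8 SP by a log2 difference of −0.78 ± 0.19 (adjusted p = 0.00882), at 24.7 ± 1.31 against 42.3 ± 5.77 CPM. Fosl2, a Fos-type gene, was lower there by −2.08 ± 0.49 (adjusted p = 0.00782). In number 1 against the rest 0 of the 4 passed, where 9.32% of all tested genes did, and their median log2 difference was −0.14 against 0.03 over all tested genes.

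Of 25 other immediate early genes, 23 were tested and 15 differed between groups, beside 27.9% of all tested genes. Nr4a1, an orphan nuclear receptor gene induced by T cell receptor signals, was at 309 ± 29.5 CPM in WT CD4 SP and 334 ± 119.8 CPM in Thpok-RKF+ CD4+CD8+, against 132.9 ± 44.3 CPM in Thpok-RKF- CD4+CD8+, 72.7 ± 8.66 CPM in WT CD8 SP and 51.0 ± 18.2 CPM in Thpok-RKF- CD8 SP. It was higher in Thpok-RKF+ than in Thpok-RKF- CD4+CD8+ cells by 1.33 ± 0.29 on the log2 scale (adjusted p = 0.0476), the 1 gene of the 23 called there, beside 0.586% of all tested genes called higher. In replicate 1 these groups were close, at 198 and 184 CPM, while the means of replicates 2 and 3 were 402 and 107 CPM. Socs3, a feedback inhibitor of cytokine signalling, was higher in Thpok-RKF- CD8 SP than in WT CD8 SP by 2.34 ± 0.22 (adjusted p = 3.84e-06). Btg2, an antiproliferative gene, rose there by 1.57 ± 0.13 (1.39e-06), and Klf2, which encodes a factor for thymic egress, fell there by 1.34 on the log2 scale (1.82e-06).

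In number 1 against the rest, 5 of those 23 genes passed, 2 higher and 3 lower, beside 3.79% of all tested genes higher and 5.53% lower. Tnfaip3, an inhibitor of NF-κB signalling, was higher by 0.96 ± 0.09 (adjusted p = 0.000358), above both other libraries in all 5 groups. Cd69, the activation marker that the sort gate kept low, was higher by 0.67 ± 0.07 (0.000816), at 103 to 239 CPM against 69.2 to 161 CPM, and it too stood above both others in all 5 groups. Myc was lower by −0.85 ± 0.10 (0.000816) and Egr1, which encodes a zinc-finger factor of the early response, by −0.36 ± 0.07 (0.00894), both below the others in all 5 groups.

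All 7 listed relatives of Dusp1 and Zfp36 were tested, and 4 differed between groups, Dusp4, Dusp5, Dusp6 and Dusp10, beside 27.9% of all tested genes. Dusp5, a nuclear phosphatase of ERK, was higher in WT CD4 SP than in WT CD8 SP by 1.33 ± 0.18 (adjusted p = 0.000176), the same side as Dusp1. In number 1 against the rest 4 of the 7 passed, where 9.32% of all tested genes did. Zfp36l2 was higher by 1.44 ± 0.10 (2.34e-05), Dusp2 by 0.97 ± 0.11 (0.000816) and Dusp10 by 0.58 ± 0.09 (0.00544), and Dusp6 was lower by −0.37 ± 0.08 (0.0199). Zfp36l2 was at 496 to 794 CPM in the libraries numbered 1 and at 163 to 384 CPM in the others, with no overlap, while Zfp36 itself averaged −0.08.

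Of 20 other heat-shock and chaperone genes, 18 were tested and 12 differed between groups, beside 27.9% of all tested genes. In WT CD4 SP against WT CD8 SP, 10 were lower and 1 higher, with a median log2 difference of −0.36 against −0.03 over all tested genes, and in Thpok-RKF- CD8 SP against WT CD8 SP 8 were lower and 1 higher, with a median of −0.38 against 0.00. Of all tested genes 10.3% and 10.6% were lower. The 10 genes chosen as steady references had 5 lower in each of these contrasts, 1 and 0 higher, and medians of −0.46 and −0.59. Both contrasts share the WT CD8 SP libraries. Hsp90ab1, a constitutive cytosolic chaperone, was at 1374 ± 113 CPM in WT CD8 SP, 790.3 ± 42.7 CPM in WT CD4 SP and 858 ± 35.3 CPM in Thpok-RKF- CD8 SP. In number 1 against the rest, where Hspa1a and Hspa1b were highest, the 18 had a median of −0.04, with Chordc1 higher by 0.20 ± 0.06 (adjusted p = 0.0432) and Hsp90b1 lower by −0.24 ± 0.07 (0.0409).

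Of 9 upstream factors, all tested, Mrtfa, a coactivator of serum response factor, passed the test across groups (adjusted p = 0.0333), where 27.9% of all tested genes did, and was lower in WT CD4 SP than in WT CD8 SP by −0.74 ± 0.18 (0.0121). Srf (0.0551), Hsf2 (0.0585) and Creb1 (0.0620) did not pass it but passed in single comparisons. In Thpok-RKF- CD4+CD8+ against WT CD4 SP 4 of the 9 were higher and 0 lower, beside 9.15% of all tested genes higher, among them Hsf2, a heat-shock factor, by 1.88 ± 0.55 (0.0292), Creb1 by 0.73 ± 0.18 (0.0154) and Mrtfa by 0.70 ± 0.18 (0.0179). Srf was lower in Thpok-RKF- CD8 SP than in WT CD8 SP by −0.53 ± 0.16 (0.0308). None of the 9 passed in number 1 against the rest. Of 10 genes chosen as steady references, 6 differed between groups, beside 27.9% of all tested genes, among them Gapdh (adjusted p = 0.000124), and 3 were lower in number 1, Ppia by −0.32 ± 0.05, B2m by −0.26 ± 0.06 and Hprt by −0.29 ± 0.07.

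**Figure D4:**
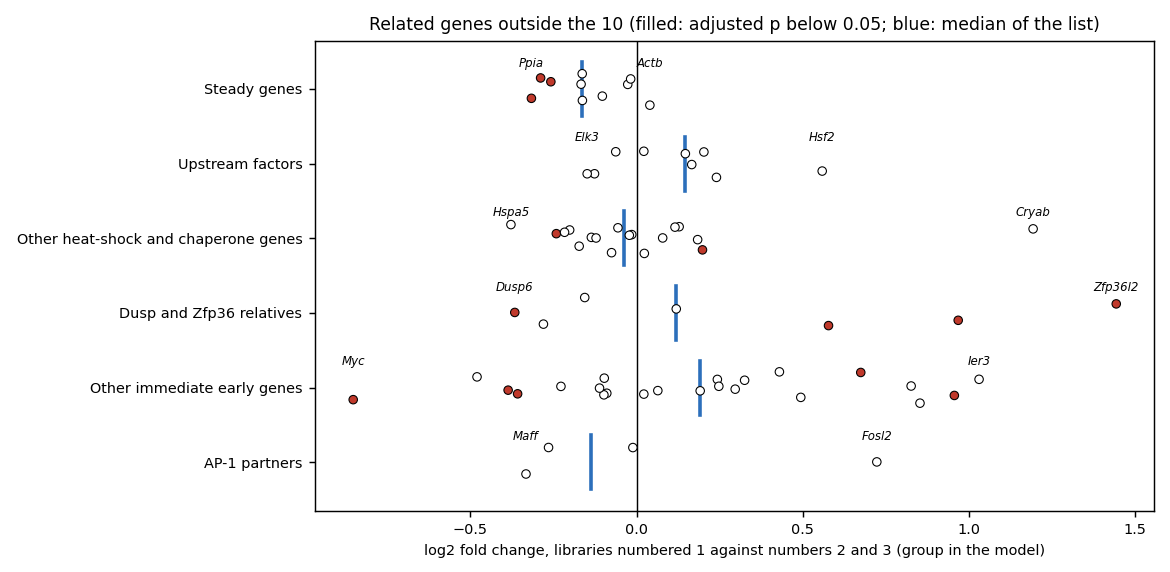
Log2 fold change of libraries numbered 1 against numbers 2 and 3 (x axis), with group in the model, for the tested genes of 6 lists outside the 10 (rows); filled points passed at an adjusted p below 0.05 and blue bars are list medians. Zfp36l2, at 1.44, is farthest to the right and Myc, at −0.85, farthest to the left, and the chaperone genes centre on −0.04.

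The genes whose within-group pattern was most like that of the 10 were found by Pearson's r over the 15 libraries, after the group mean was taken from each log2 CPM, among 8332 genes. The 15 points share the groups and the split by replicate number, so r is a description. For the mean of the 7 tested immediate early genes, r was 0.963 for Nfkbia, which encodes the NF-κB inhibitor IκBα, 0.906 for Dph5, 0.904 for Cd101, 0.903 for Sema4a and 0.900 for Elp4. Among the 7 themselves r with their own mean was 0.935 for Junb, 0.804 for Dusp1, 0.666 for Jun, 0.658 for Fos, 0.569 for Ier2, 0.350 for Zfp36 and 0.166 for Jund. Nfkbia was at 507, 426 and 404 CPM in replicates 1, 2 and 3 of WT CD4 SP, and at 448, 496 and 460.4 CPM in Thpok-RKF+ CD4+CD8+, so that replicate 1 was the highest in the first group and the lowest in the last, as for Junb. For the heat-shock pair r was 0.955 for Znrf3, 0.948 for Sfi1, 0.946 for Zfp53, 0.943 for Ankrd39 and 0.942 for Setd4. Znrf3 was at 55.3 to 161 CPM in the libraries numbered 1 and stood above both other libraries in all 5 groups.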

How the data were processed

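RNA extracted on RNeasy Plus Micro columns was made into SMARTer Ultra Low Input libraries and read as 101-base pairs by NovaSeq, per the labels' protocols. Tools named, without roles, in the submitters' processing notes are STAR, HTSeq, Trimmomatic, DESeq2 and bcl2fastq 2.17, with mm39 as build. Annotation and strand setting: not given in the sources used here. The authors deposited read counts per gene, as 1 file per library and 1 table, identical in all 15 libraries. They also deposited normalised values, which are CPM: scaled back by gene totals, 100% came out whole (tolerance 0.01). Each table held 3 further columns that match no label and were not used. The 5 summary lines, 15.9 to 21.0% of counted reads, were left out of library sizes. Replicates differed by more than sampling noise (chi-square over degrees of freedom 11.9 to 213, for pairs with at least 20 counts).

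CPM levels use TMM-scaled library sizes, and log2 levels use a prior count of 2. Tests are the edgeR 4.0.16 quasi-likelihood F test, run on the authors' counts with all 15 libraries in 1 model of 5 group means, since the groups share 1 estimate of the spread. The low-count filter had a minimum count of 10 and total of 15, and p-values were adjusted over all 16550 tested genes (Benjamini-Hochberg, threshold 0.05). The fits were tested on simulated data. Number 1 against the rest and number 3 against 2 had group as a term. Alternatives were RLE size factors, no filter, DESeq2 1.42.0, limma 3.58.1 on log2 of the deposited CPM plus 1, a replicate block, a term for or removal of the libraries numbered 1, only the compared groups, and each library left out.

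The 10 genes and the lists of related genes were chosen with earlier results of these data known. All 10 are named, and of each list up to 4 genes by the smallest p across groups and up to 4 by the smallest p of number 1 against the rest. Of likeness, the 5 highest r per profile are named, at a mean log2 CPM of at least 3. The lists were AP-1 partners, other immediate early genes, Dusp and Zfp36 relatives, chaperones, upstream factors, steady genes, and markers of T, myeloid, B, stromal and erythroid cells. Summed marker levels in libraries numbered 1 and in the others were 362 to 843 and 544 to 1190 CPM (B cells), 160.0 to 295 and 177 to 312 CPM (stroma), and 0.106 to 5.94 and 0.0432 to 10.5 CPM (erythroid). Transcripts for the 101-base comparison were those of GENCODE M21.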

Additional observations from a re-analysis of the deposited data

Results flagged for a closer look

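Junb stood above both other libraries of its group in the library numbered 1 in 3 groups and below both in 2, WT CD8 SP and Thpok-RKF+ CD4+CD8+, and its group differences spanned 1.72 on the log2 scale. Ier2 did the same in 3 and 2 groups, with a span of 1.18. Zfp36 stood above both in 2 groups and below both in 2, with a span of 0.576. What drew attention was that all libraries with that number in some groups lay on 1 side and those in other groups on the opposite side. The difference between groups was not tested for any of the 3 genes.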

How the results depend on the processing

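Counts of the 10 genes past the threshold rose in several alternatives. Shares in brackets are of all tested genes in the same fit. Across the 5 groups 2 passed (27.9%), and 5 did with no low-count filter (18.3%), 5 with DESeq2 (38.6%), 4 with limma (32.9%), 7 with the libraries numbered 1 left out (32.5%) and 5 with number 1 as a term (37.1%). With 1 library left out this count was 2 to 5 (19.1 to 35.4%). Between the WT groups, where 2 passed (18%), it was 0 to 2 (11 to 20.5%). For Thpok-RKF+ against Thpok-RKF- CD4+CD8+ it was 0 (0.961%), and 1 with no filter (1.37%), 1 with DESeq2 (3.9%), 5 with number 1 left out (10.7%), and 0 to 1 with 1 library left out (0.288 to 9.74%). For Thpok-RKF- CD4+CD8+ against CD8 SP it was 1 (2.44%), and 2 with number 1 left out (3.14%), 2 with only the compared groups (3.58%), and 1 to 2 with 1 library left out (1.24 to 2.96%). For Thpok-RKF- CD8 SP against WT CD8 SP it was 2 (18.4%), and 4 with a term for number 1 (23.2%) and 1 to 3 with 1 library left out (11.7 to 20.4%). Against WT CD4 SP it was 0 for Thpok-RKF- (17.6%), and 4 with number 1 left out (20.3%), 1 with number 1 as a term (24.5%) and 0 to 1 with 1 library left out (8.57 to 22%). For Thpok-RKF+ it was 0 (7.26%), and 1 with number 1 left out (6.14%) and 0 to 1 with 1 library left out (4.78 to 7.59%). The cause was not tested. A fit without number 1, with a term for it or with a replicate block takes away the difference the genes were chosen by. The share of all tested genes rose in most of these fits as well, such as from 0.961% to 10.7% for Thpok-RKF+ against Thpok-RKF- CD4+CD8+. The median number 1 difference of the 10 genes, 0.62, lay between 0.50 and 1.03 in all alternatives.

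The sign of a number 1 difference turned for Fosb (main 0.31), to −0.00136 without WT CD4 SP and −0.216 without WT CD8 SP, with a range of −0.0216 (without Thpok-RKF- CD4+CD8+ replicate 2) to 0.640 when 1 library was left out, for Zfp36 (main −0.08), to 0.00470 without WT CD8 SP, and for Ier2 (main −0.16), to 0.0375 without Thpok-RKF+ CD4+CD8+.

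Same-numbered libraries of 2 groups had r of −0.05 to 0.22 in their deviations, and in 21 of 36 cases the own number gave the highest r. In no pair of groups did every same-numbered r exceed 0.1, so the numbers were not taken as a pairing. Libraries numbered 1 were weakly alike in some pairs of groups. Their r was 0.22 for Thpok-RKF- CD4+CD8+ against Thpok-RKF- CD8 SP, and −0.01 for Thpok-RKF- CD4+CD8+ against WT CD4 SP. A replicate block also takes away the difference the genes were chosen by, so its counts are not read against the share of all genes. With it, Fos, Dusp1, Zfp36 and Ier2 passed across groups, 4 of the 9, where 34.2% of all tested genes did. The same 4 genes passed for Thpok-RKF- CD8 SP against WT CD8 SP, where 21.8% of all tested genes did. Depth limits Fosb and Hspa1a, at no more than 18 and 89 counts in any library, and Hspa1b in the libraries with 0 to 30.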
